A study of Mus musculus with 11 samples.

Results

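Caveolae are flask-shaped pits of the plasma membrane, and this account covers 10 mouse genes whose proteins build them or mend torn membrane. The genes are the caveolins Cav1, Cav2 and Cav3, the cavin Ptrf, the membrane-bending gene Bin1, the EHD family members Ehd1 and Ehd2, the ferlins Dysf and Myof, and Trim72. They were taken as every probe of the array whose annotated symbol is one of these names. Of the 10 genes, 9 had at least 1 probe, and Myof, a ferlin of fusing myoblasts, had none under that name or its older one. Ptrf is listed under its current symbol, Cavin1. The 9 genes were carried by 14 of the 25697 probes, and 12 of these probes were bright enough to be tested.

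The samples were cultures of C2C12, an established line of mouse skeletal myoblasts, so that replicates differ as cultures and not as animals. Day 0 samples, labelled undifferentiated, were grown in medium rich in fetal bovine serum. In 1 of them, replicate 5, some muscle mRNAs were above those of the other 4, as given with Trim72. Day 6 samples had spent 6 days in differentiation medium with little horse serum, in which C2C12 myoblasts fuse into multinucleated myotubes. Each day held 5 samples, which the series' design text calls independent experiments. No gene was altered in either group, and all samples came from the same line.

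Each RNA was applied to a MouseRef-8 v2.0 BeadChip, on which a probe's brightness stands for the abundance of 1 mRNA. Day 0 replicate 5 was hybridized on 2 arrays, and their mean was used as 1 sample. The values given are log2 normalized signals, with the mean ± SD of 5 samples per day, and a change is the Day 6 mean minus the Day 0 mean on that scale. A probe was detected in a sample where its detection p, the chance of so bright a signal from control beads, was under 0.05. Adjusted p-values are limma's, with Benjamini-Hochberg adjustment over the 12753 probes tested, and a probe was called where that value was under 0.05.

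A caveolin inserts into the inner leaflet of the membrane and assembles into oligomers, and the cavins coat the outside of these assemblies. Cav1 and Cav2 occur in many tissues, whereas Cav3 is the caveolin of skeletal and cardiac muscle. EHD proteins are ATPases that bind curved membrane: EHD2 sits at the neck of the caveola, and EHD1 serves the return of endosomal cargo to the surface. BIN1 bends membrane into tubules and is required for the T-tubules of muscle. Dysferlin and MG53, the product of Trim72, gather at wounds of the muscle membrane and promote resealing, and both are known to bind caveolin-3.

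Of the 12 tested probes, 7 were higher at Day 6, 2 were lower and 3 were not called. Over all 12753 probes, 44.4% were called, 20.5% as higher and 23.8% as lower. The 7 higher probes belonged to 4 genes, Cav3, Bin1, Dysf and Trim72. The 2 lower probes were those of Cav2 and Ehd1, and Cav1, Ptrf and Ehd2 gave no call. On 7 probes no Day 6 value overlapped a Day 0 value, and 31.4% of all probes were separated in this way. The probe of Cav3 and the tested pair of Dysf probes reached the detection requirement only through Day 6, so their presence among the tested probes already favoured an increase. The balance of calls over all probes depended on the scaling, since higher probes were 46.3% of the calls after quantile normalization and 35.7% when the arrays were given equal medians.

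**Figure D1:**
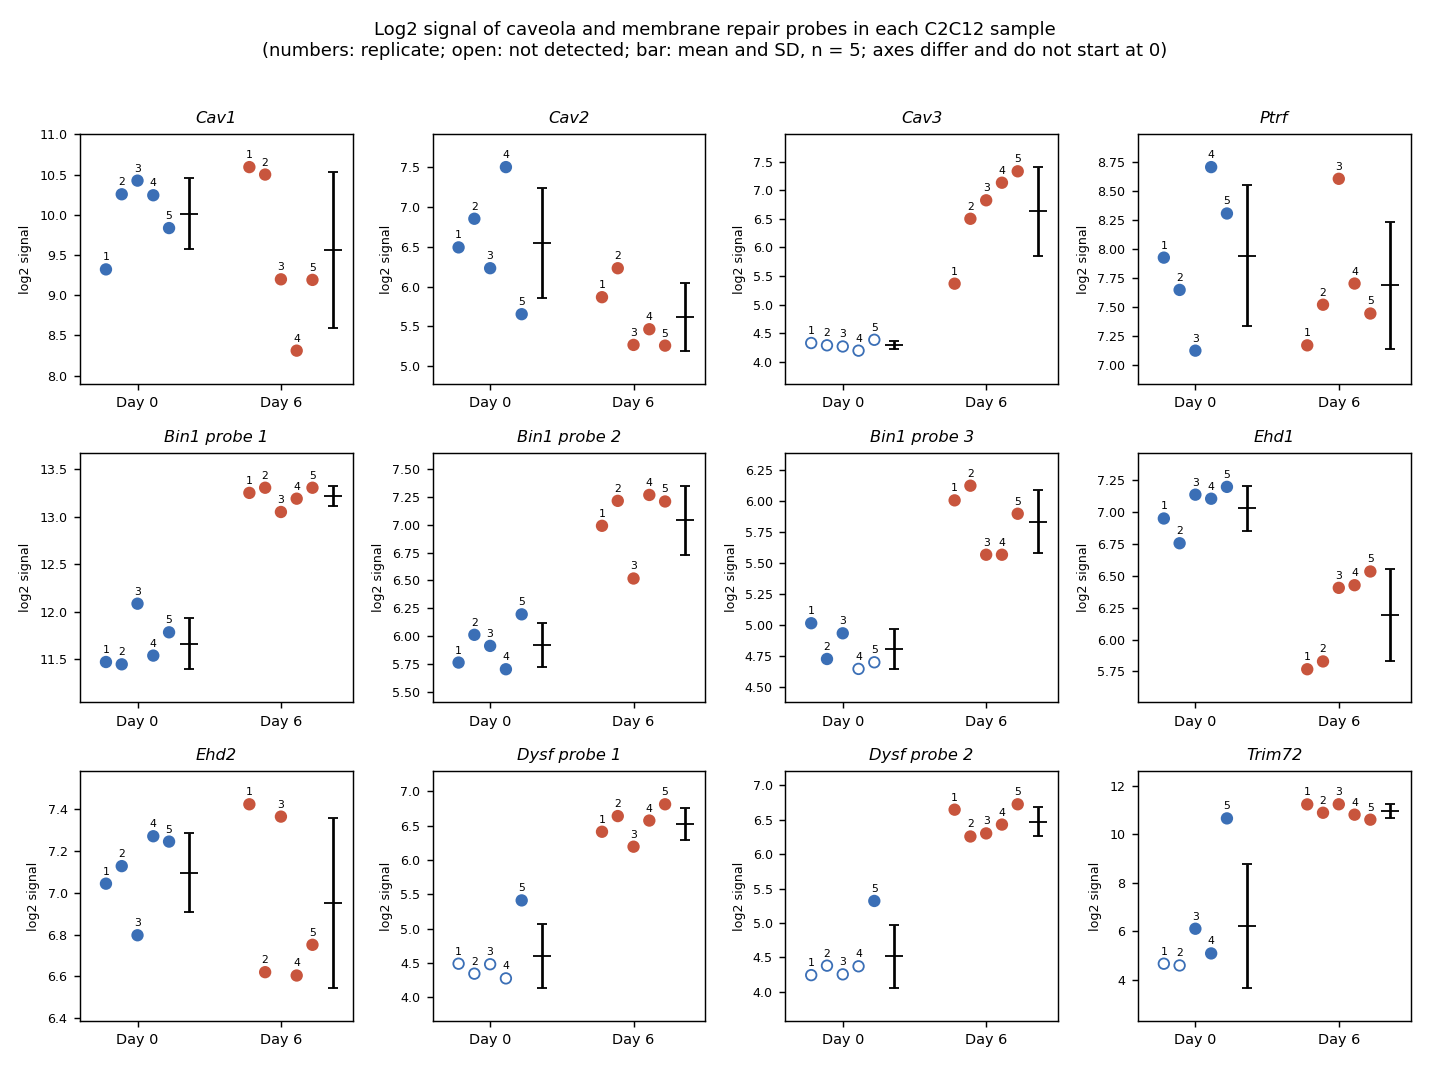
Log2 normalized signal (vertical axes, each with its own range) of the 12 tested probes in every sample at Day 0 (blue) and Day 6 (red), with replicate numbers, open circles for samples in which the probe was not detected, and bars for the mean and SD of 5 samples. Cav3, the Bin1 probes and the Dysf probes separate the days upward and Ehd1 downward, and Day 0 replicate 5 lies at 10.65 for Trim72, among the Day 6 samples.

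Cav3 was the caveolin that rose. Its signal was 4.33, 4.29, 4.27, 4.19 and 4.38 in Day 0 replicates 1 to 5, and it was not detected on any Day 0 array. At Day 6 it was 5.36, 6.50, 6.82, 7.13 and 7.33 and was detected in all 5 samples. The days did not overlap, and the Day 6 samples spread over a far wider range than the Day 0 samples. The fitted change was 2.34 (SE 0.29, limma adjusted p = 2.3e-05). Since the Day 0 signal is only background, the fold can only be bounded. Counted against the lowest signal that detected probes reached in each Day 0 sample, the bound was 3.84-fold higher at Day 6. It holds for these settings and is not a floor for others. With detection at a p under 0.01 the bound was 2.94-fold, and without background correction the change in signal was 1.23.

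A short stretch before the start of transcription is shown for Cav3, together with that of Ehd2. Among the members searched, these were the ones whose promoter window held the E-box CAGCTG. This is a sequence of the kind bound by myogenic factors such as MyoD and myogenin. RefSeq promoter windows of 300 bases, from 250 before to 50 after the start, were searched for 8 of the 10 genes, in 11 windows. The remaining members were left out of the search, so whether their promoters hold the motif was not tested. The motif reads the same on both strands. It was found in 2 of these 11 windows, those of Cav3 and Ehd2, and in 16.3% of all 32851 windows. Capitals mark the E-box, which begins 106 bases before the start of Cav3 and 204 bases before that of Ehd2, in GRCm38.p6, with Cav3 at chr6:112459387-112459416 on the plus strand and Ehd2 at chr7:15967722-15967751 on the minus strand.
Cav3: tcccttcttgggCAGCTGctcctgggagga
Ehd2: ccccacgcggtcCAGCTGgcttcaaacttg
Both are printed 5′ to 3′ on the gene's strand. Cav3 rose, whereas Ehd2 was not called.

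Cav1, the major caveolin of non-muscle cells, varied more within a day than between days. Its signal was 9.32, 10.25, 10.42, 10.24 and 9.83 in Day 0 replicates 1 to 5. At Day 6 it was 10.59, 10.50, 9.20, 8.31 and 9.19. The Day 6 samples thus included both the highest and the lowest of the 10 values. The means were 10.02 ± 0.45 and 9.56 ± 0.97 (SD, n = 5 each). The change was -0.46, with a 95% interval from -1.29 to 0.37 (limma adjusted p = 0.365), which takes in a clear fall as well as a small rise. Leaving out Day 6 replicate 4 gave -0.15, and leaving out Day 6 replicate 1 gave -0.72.

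Cav2, which joins Cav1 in hetero-oligomers, was lower at Day 6 by a call that was not firm. One Cav2 probe read 6.49, 6.85, 6.23, 7.49 and 5.65 at Day 0. It read 5.87, 6.23, 5.27, 5.47 and 5.26 at Day 6. The days overlapped, since Day 0 replicate 5 was below the highest 2 Day 6 samples. The change was -0.92 (SE 0.30, limma adjusted p = 0.0225; exact permutation test, two-sided p = 0.0318), a signal 1.90-fold higher at Day 0. Without background correction the change was -0.53. The adjusted p rose above 0.05 when any 1 of 4 samples was left out, namely Day 0 replicate 2 (change -0.85, limma adjusted p = 0.0531), Day 0 replicate 4 (-0.69, limma adjusted p = 0.0524), Day 6 replicate 3 (-0.84, limma adjusted p = 0.0559) and Day 6 replicate 5 (-0.83, limma adjusted p = 0.0570). Leaving out any other single sample kept the call. Without Day 0 replicate 5, the lowest Day 0 sample, the change was -1.15 (limma adjusted p = 0.0032). The other Cav2 probe was not detected in any sample, ranged from 4.19 to 4.58 and was not tested.

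The differences between the caveolins were also compared directly, among 4 comparisons within families that were added after the values had been seen. Cav3 signal at Day 0 was background, so these tests compare signals and their sizes are not folds of mRNA. Cav3 was also tested only through Day 6, which favours a rise. Adjustment over the 4 comparisons corrects neither for that nor for the choice of pairs, so the p-values are descriptions. Cav3 signal rose relative to that of Cav1 by 2.80 (SE 0.77; exact permutation test, two-sided p = 0.0159, adjusted over the 4 comparisons p = 0.0318). Relative to that of Cav2 it rose by 3.26 (SE 0.59; exact p = 0.00794, adjusted p = 0.0318), where 0.00794 is the smallest value that 5 samples against 5 allow. The changes of Cav2 and Cav1 differed by -0.47 (SE 0.44; exact p = 0.333), which is within the spread of the samples.

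The Day 6 samples themselves were not alike in the caveolins. Replicates 1 and 2 held the 2 highest values of Cav1 and of Cav2, at 10.59 and 10.50 and at 5.87 and 6.23. The same 2 samples held the 2 lowest values of Cav3, at 5.36 and 6.50. In the sample descriptions these 2 samples carry the tags E1 and E2, and the other Day 6 samples E3 or E4. The meaning of these tags is not given, and the split between the samples cannot be told apart from them. This arrangement was picked out after the values were seen and was not tested.

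Ptrf, the cavin that caveola formation requires, gave 7.92, 7.65, 7.12, 8.71 and 8.31 at Day 0. It gave 7.17, 7.52, 8.60, 7.70 and 7.44 at Day 6. Both days covered almost the same range. The change was -0.25, with a 95% interval from -0.91 to 0.40 (limma adjusted p = 0.533).

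Of the 2 EHD members, Ehd1 was called. Its signal was 6.95, 6.75, 7.14, 7.10 and 7.20 at Day 0. At Day 6 it was 5.77, 5.83, 6.41, 6.43 and 6.53. Every Day 6 sample was below every Day 0 sample, with Day 6 replicates 1 and 2 lowest. Ehd1 fell by 0.84 (SE 0.18, limma adjusted p = 0.0020), a signal 1.78-fold higher at Day 0. Without background correction the change was -0.53.

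Ehd2, the ATPase of the caveolar neck, read 7.04, 7.13, 6.80, 7.27 and 7.24 at Day 0. It read 7.42, 6.62, 7.36, 6.60 and 6.75 at Day 6, again with the highest and the lowest of the 10 values on that day. The change was -0.14, with a 95% interval from -0.56 to 0.27 (limma adjusted p = 0.582). The changes of Ehd1 and Ehd2 differed by -0.69 (SE 0.29), and after adjustment over the 4 family comparisons this did not pass the threshold (exact permutation p = 0.0476, adjusted p = 0.0635).

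Bin1 rose on all 3 of its probes. The first read 11.47, 11.45, 12.08, 11.54 and 11.78 at Day 0 and 13.25, 13.30, 13.05, 13.19 and 13.30 at Day 6, a change of 1.55 (SE 0.15, limma adjusted p = 2.7e-06). That is a 2.94-fold higher signal, and its Day 6 samples differed little from each other. The second read 5.77, 6.01, 5.91, 5.71 and 6.20 at Day 0 and 6.99, 7.21, 6.52, 7.27 and 7.21 at Day 6, a change of 1.12 (SE 0.17, limma adjusted p = 0.00014). The third, detected in 3 of the 5 Day 0 samples, read 5.01, 4.72, 4.93, 4.64 and 4.70 at Day 0 and 6.01, 6.12, 5.57, 5.57 and 5.90 at Day 6, a change of 1.03 (SE 0.16, limma adjusted p = 0.00012). On each probe the days were separated. Without background correction the changes were 1.54, 0.69 and 0.45. Which Bin1 splice forms the probes reach was not analysed here.

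Dysf, the dysferlin gene whose loss causes a muscular dystrophy in humans, rose on both of its tested probes. The first probe read 4.49, 4.35, 4.48, 4.28 and 5.41 at Day 0. It read 6.41, 6.64, 6.20, 6.58 and 6.81 at Day 6, a change of 1.93 (SE 0.21, limma adjusted p = 7.7e-06). Day 0 replicate 5 stood above the other 4 Day 0 samples but below every Day 6 sample.

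The second Dysf probe read 4.24, 4.38, 4.25, 4.37 and 5.32 at Day 0. It read 6.65, 6.26, 6.30, 6.43 and 6.73 at Day 6, a change of 1.96 (SE 0.21, limma adjusted p = 5.2e-06). Both probes were detected in 1 of the 5 Day 0 samples, replicate 5, so the Day 0 means are largely background and the changes are measured against it. Without background correction the changes were 0.95 and 0.98. The third Dysf probe was detected only in Day 6 replicate 2, ranged from 4.20 to 4.75 over all samples and was not tested.

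Trim72, the gene of MG53, was higher at Day 6. Its signal was 4.67, 4.59, 6.11 and 5.09 in Day 0 replicates 1 to 4 and 10.65 in Day 0 replicate 5, and it was not detected in replicates 1 and 2. At Day 6 it was 11.22, 10.88, 11.23, 10.80 and 10.59. Of the 5 Day 0 samples 4 were far below Day 6, whereas the remaining one lay within the Day 6 range. The change was 4.72 (SE 0.89, 95% interval 2.81 to 6.64, limma adjusted p = 0.00072; exact permutation test, two-sided p = 0.0159). Without Day 0 replicate 5, the only sample that made the days overlap, the change was 5.83 (limma adjusted p = 5.3e-09). That sample was singled out after its value was seen, so this p-value is a description. Leaving out any other single sample gave changes from 4.32 to 4.81, with limma adjusted p from 0.0018 to 0.0025.

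The high Trim72 value of Day 0 replicate 5 was present on both of its arrays, at 10.66 and 10.63. Before normalization the 2 signals were 1223.5 and 1452.5, against 61.2 to 112.2 on the other 4 Day 0 arrays. Some other muscle genes moved with it. Myog, the myogenin gene that drives terminal differentiation, was higher in this sample than in the mean of the other 4 Day 0 samples by 3.51, where the Day 6 mean was higher by 4.98. For Acta1, skeletal alpha-actin, the values were 4.42 and 6.14, and for Ckm, muscle creatine kinase, 1.25 and 5.20. Mef2c, another myogenic transcription factor, went the opposite way in this sample, at -0.79, with 4.02 for Day 6.

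The members themselves split in Day 0 replicate 5. Against the other 4 Day 0 samples it was higher by 5.53 on Trim72 and by 1.01 on each tested Dysf probe, where Day 6 was higher by 5.83 and by 2.13 and 2.16. On Cav2 it was lower by a difference of -1.11, almost the -1.15 of Day 6. Ehd1 went the other way, at 0.21 against -0.79, and was highest in this sample among the Day 0 samples. Of the members with no call, Ptrf (0.46 against -0.16) and Ehd2 (0.18 against -0.11) also went the other way. Cav1 (-0.23 against -0.50) did not. On Cav3 the difference was 0.11, against 2.36 for Day 6, and on the first Bin1 probe 0.15, against 1.58. The second Bin1 probe, at 0.35 against 1.19, was highest in this sample among the Day 0 samples, the third was slightly below the mean of the others, at -0.13, and Cav3 was at background. Whether these values come from cells that had begun to differentiate or from RNA of Day 6 cells was not tested. The Trim72, Dysf and Cav2 changes are subject to it.

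**Figure D2:**
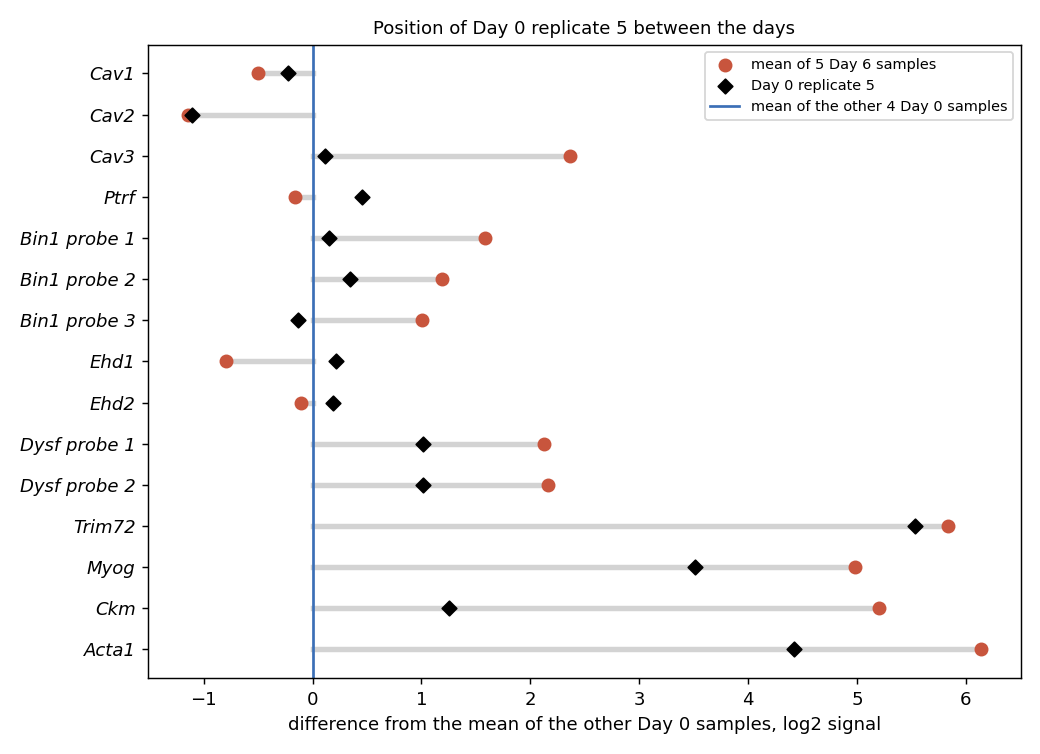
Difference in log2 signal from the mean of the other 4 Day 0 samples (horizontal axis, blue line at 0) for Day 0 replicate 5 (black diamonds) and for the mean of the 5 Day 6 samples (red circles), by probe. Trim72 and Cav2 of this sample lie next to Day 6, the Dysf probes about midway, and Cav3, at background, and Bin1 nearer to the other Day 0 samples. Ehd1, Ptrf and Ehd2 lie on the side of the blue line opposite to Day 6.

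The sample descriptions carry a tag, E1 to E4, whose meaning the labels do not give, and each tag holds both days. Within E1, E2, E3 and E4 the Cav3 difference was 1.06, 2.23, 2.78 and 2.95. The 3 Bin1 probes and the tested Dysf probes were higher at Day 6 within every tag, and Ehd1 was lower within every tag, at -1.08, -1.31, -0.69 and -0.66. Each tag held 1 or 2 samples a day. On every one of these probes the days did not overlap, so any subset with both days must give the same direction. The agreement between tags therefore adds nothing to the separation given above.

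Trim72 was higher at Day 6 within E1, E2 and E3, by 6.59, 4.77 and 5.93, and differed by -0.05 within E4, the tag of Day 0 replicate 5. Cav2 differed by -0.80, -0.00, -2.12 and -0.39, the largest difference being in E3. Cav1 differed by 0.81, 0.08, -1.49 and -0.64 and changed sign between tags, as did Ptrf (-0.62, 0.40, -0.55 and -0.86) and Ehd2 (0.34, -0.18, -0.29 and -0.49).

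**Figure D3:**
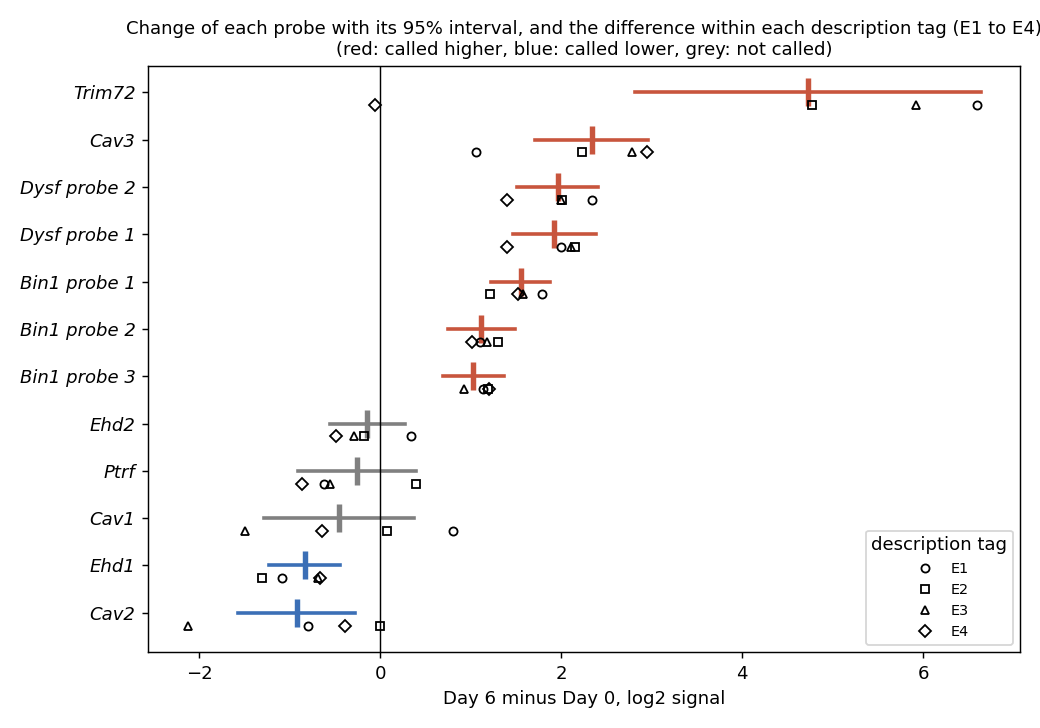
Change from Day 0 to Day 6 in log2 signal (horizontal axis) of each tested probe, with vertical ticks for the fitted change, bars for its 95% interval and open symbols for the difference within each description tag. The intervals of Ehd2, Ptrf and Cav1 cross 0, and the E4 symbol of Trim72 lies at -0.05, far from its other 3.

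Levels that followed Trim72 and Cav2 most closely were looked up among 11987 other tested probes with a symbol, over the 10 samples. For Trim72 they were Ccnd3, a D-type cyclin (Pearson r = 0.992), Bcl2l2, a survival gene of the BCL2 family (0.989), and Loxl1, a lysyl oxidase (0.985). For Cav2 they were Prrx1, a mesenchymal homeobox gene (0.946), Tial1, an RNA-binding protein gene (0.942), and Trdmt1, a tRNA methyltransferase (0.937). The points share the difference between the days and, for Trim72, the single high Day 0 sample, so these correlations are descriptions.

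Genes that work beside the members were read from 5 lists with 66 genes, of which 53 were tested, each by its brightest probe. Of the 53, 17 were higher, 9 lower and 27 not called, with a median change of 0.19. With equal array medians 11 were higher and 11 lower. Of the 17 higher genes, 5 (Pacsin1, Capn3, Jph2, Cacnb1 and Tcap) were detected in 0 or 1 Day 0 samples and were tested only through Day 6, which favours a rise, so their changes are measured against background. Over all 8659 genes tested in this way 21.0% were higher and 24.2% lower, with a median change of -0.03.

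In the caveolar coat and neck, 4 of 9 genes were higher and 1 lower, with a median change of 0.33. Pacsin1, an F-BAR protein gene best known from neurons, was detected in 0 Day 0 samples and rose by 3.46 (SE 0.22, limma adjusted p = 5.6e-08), but its second probe gave -0.15 (limma adjusted p = 0.431) and was not called. Murc, the muscle-restricted cavin now named Cavin4, rose by 3.22 (SE 0.24, limma adjusted p = 2.7e-07), from 7.76 ± 0.60 to 10.97 ± 0.17 (SD, n = 5 each). Pacsin3, the F-BAR member of muscle, rose by 2.41 (SE 0.20, limma adjusted p = 6.6e-07). The lower gene was Prkcdbp, or Cavin3, at -0.84 (SE 0.19, limma adjusted p = 0.0031), and its second probe gave -0.36 (limma adjusted p = 0.125). The fourth higher gene was Ehd4, at 0.97 (SE 0.21, limma adjusted p = 0.0020). The coat thus held a muscle cavin that rose beside Ptrf, for which no change was called.

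In the T-tubule list, 5 of 8 tested genes were higher and 1 lower, with a median change of 1.67, but 3 of the higher genes, Tcap, Cacnb1 and Jph2, were tested only through Day 6. Tcap, the titin cap protein gene, detected in 1 Day 0 sample, rose by 5.11 (SE 0.22, limma adjusted p = 2.8e-09), Jph1, which ties T-tubules to the sarcoplasmic reticulum, by 3.17 (SE 0.22, limma adjusted p = 1.3e-07), and Cacnb1, the beta subunit of the muscle calcium channel, also detected in 1 Day 0 sample, by 2.64 (SE 0.17, limma adjusted p = 7.1e-08). The lower gene was Mtmr2, a lipid phosphatase, at -0.73 (SE 0.16, limma adjusted p = 0.0026), while its other 2 probes were not called. Bin1, a member, moved in the direction of the 5 higher genes.

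Of 16 tested partners of membrane repair, 4 were higher and 4 lower, shares close to those over all genes, with a median change of 0.13. Capn3, the muscle calpain, detected in 0 Day 0 samples, rose by 1.51 (SE 0.19, limma adjusted p = 2.3e-05), and Snap23, a SNARE of membrane fusion, by 1.12 (SE 0.14, limma adjusted p = 3.4e-05). S100a10, the annexin A2 partner, fell by 1.14 (SE 0.23, limma adjusted p = 0.0011), and the change of S100a11, an annexin A1 partner, was -1.09 (SE 0.17, limma adjusted p = 0.00021). The other calls were higher for Smpd1 and Vamp2 and lower for Anxa1 and Capn2.

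The list of ESCRT-III, the machinery that pinches off damaged membrane, also held genes that act with it. It had 1 of 10 tested genes higher, the ESCRT-III gene Chmp1b at 0.81 (SE 0.16, limma adjusted p = 0.0010), and 1 lower, the ESCRT-I gene Tsg101 at -0.44 (SE 0.16, limma adjusted p = 0.0396). Among EHD recycling partners 3 of 10 were higher and 2 lower, with Ehbp1l1, an EHD-binding scaffold, at 1.58 (SE 0.23, limma adjusted p = 7.8e-05), and the GTPases Arf6 at -0.79 (SE 0.18, limma adjusted p = 0.0032) and Rab35 at -0.54 (SE 0.15, limma adjusted p = 0.0108). The medians of these 2 lists were 0.09 and 0.14. Over the 5 lists, 6 genes had probes that differed in their call: Pacsin1, Prkcdbp, Mtmr2 and Numb, called on their brightest probe, and Ahnak and Rab8a, called only on a dimmer one.

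**Figure D4:**
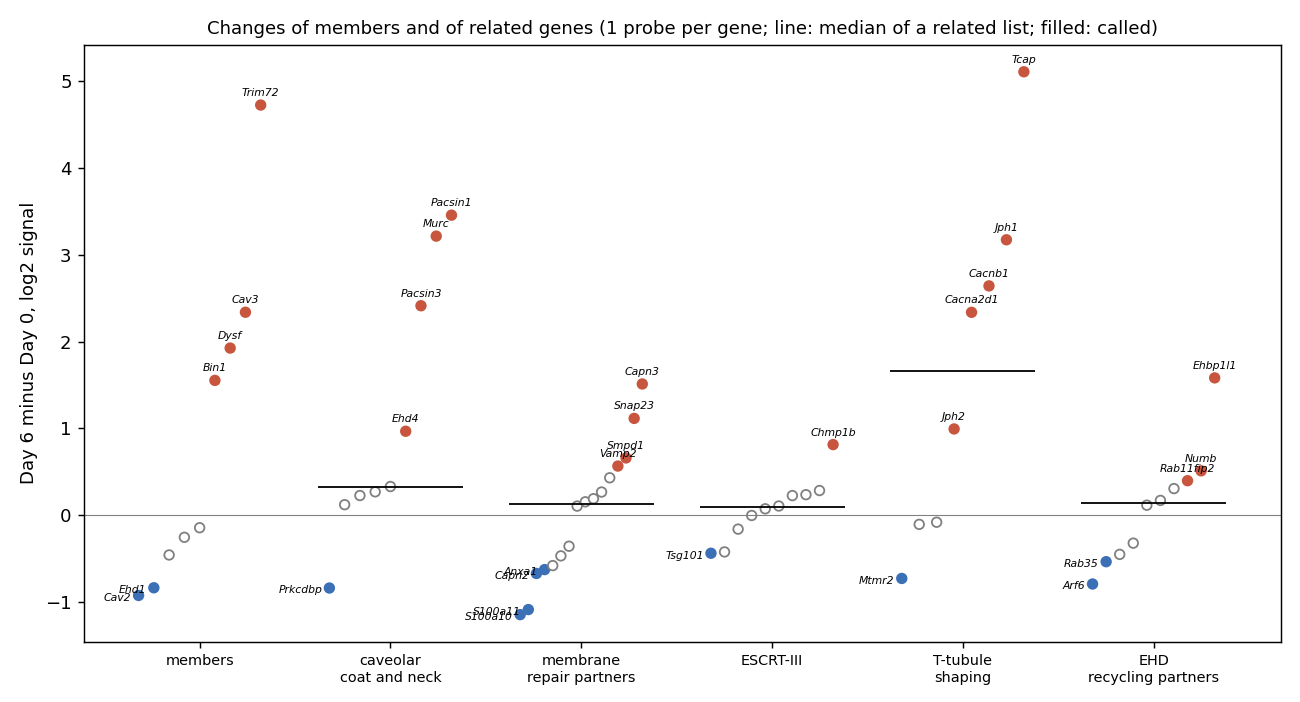
Change from Day 0 to Day 6 in log2 signal (vertical axis) of the members, by their first probe, and of the tested genes of 5 related lists (horizontal axis), with red for genes called higher, blue for genes called lower, open circles for genes not called and a line at the median of each related list. The T-tubule list, with its median at 1.67, sits highest, and the repair partners spread from -1.14 to 1.51.

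The arrays were alike in brightness, with median signals from 56.6 to 64.3 and 44.7% to 48.7% of probes detected. Log2 signals correlated at 0.935 to 0.991 within Day 0, at 0.968 to 0.992 within Day 6 and at 0.836 to 0.893 between the days. The 6 tested differentiation markers were all higher at Day 6, Myog by 4.28 (SE 0.59, limma adjusted p = 6.1e-05) and Ckm by 4.95 (SE 0.24, limma adjusted p = 4.4e-09). In whole cultures such as these, fewer cells of a type and less RNA per cell cannot be told apart. Of the markers of other cell types, 2 of 7 endothelial, 2 of 6 adipocyte, 2 of 5 smooth muscle and 0 of 3 macrophage genes with a probe were bright enough to test, and the 1 call among them was Pparg, lower by a change of -1.19. Pecam1, Cdh5, Adipoq, Fabp4, Myh11 and Ptprc, which define these types, were not bright enough. The 3 macrophage genes were each detected in at least 1 Day 6 sample and in 0 Day 0 samples. The normalized signals of a list, summed on the linear scale over its genes, ranged over 149.7 to 169.2 in Day 0 samples and 158.3 to 187.2 in Day 6 samples for endothelial genes. For adipocyte genes the ranges were 209.2 to 318.5 and 178.2 to 230.2, for smooth muscle genes 8804 to 25220 and 16910 to 21970, and for macrophage genes 64.2 to 64.8 and 62.4 to 77.1. The smooth muscle sums came mainly from Acta2, with log2 means of 13.71 at Day 0 and 14.13 at Day 6. Smtn read 9.97 and 10.55. Undetected probes add background, which makes up most of the endothelial and macrophage sums. The sums are therefore not amounts of these cell types. Whether any such cells were present in these C2C12 cultures, or had a part in the results for Cav1 and Cav2, was not tested.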

How the data were processed

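RNA of 10 C2C12 samples was measured on 11 arrays. The authors extracted signal intensities and detection p-values from the scans with GenomeStudio 2011.1, without normalization between arrays. A deposited score per probe, the authors' Z-score, equals the log signal centred and scaled within its array and served as an alternative.

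Background correction and quantile normalization used neqc (limma 3.58.1 in R 4.3.3, offset 16), which inferred the negative controls from the detection p. The 2 arrays of Day 0 replicate 5 were then averaged. The array held 25697 probes, of which 23978 had a single symbol and 1719 had none. Probes with a detection p (mean over a sample's arrays) under 0.05 in 3 or more samples of either day were tested, 12753 in number. Probes were fitted by lmFit and eBayes with no covariate and called at a Benjamini-Hochberg adjusted p under 0.05. Related genes were read from their brightest tested probe. Single differences were tested by a two-sided exact permutation test. Plots and motif searches used Python 3.11.15 with matplotlib 3.10.9. The fit was tested on simulated data.

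Named were every probe of the members, up to 3 called genes with the largest change per related list, Myog and Ckm, and the 3 genes with the highest Pearson correlation to the member with the largest called increase and the one with the largest called decrease. Other genes of small groups, Acta1 and Mef2c were named with their values already in view. The members and lists were chosen with earlier results of these data known. Replicate numbers were not used as a pairing in the main fit. Fits with them, or with the tag, as a block are given in the closing section. P-values measure the spread between these cultures of 1 line. The array annotation names no genome build, so no gene positions are given apart from the RefSeq promoter windows. The methods' Z-ratio, the alternatives to normalization, filter, arrays, block and variance model, and leaving out samples are covered in the closing section.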

Additional observations from a re-analysis of the deposited data

Results flagged for a closer look

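Within a day, 28 sets of 5 samples of a member probe were examined for a sample that stood apart, by the gap to its nearest neighbour as a share of the whole range, and 4 passed the limit of 0.71. Chance passes about 1 in 20 such sets. Of the 4, 3 were Day 0 replicate 5. Its share was 0.7504 for Trim72, at 10.65, 0.8117 for the first Dysf probe, at 5.41, and 0.8724 for the second Dysf probe, at 5.32. The other was Day 0 replicate 2 on the undetected Cav2 probe, with a share of 0.7142 at a log2 signal of 4.58.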

How the results depend on the processing

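The 12 member changes were recomputed under alternatives that gave 268 values, of which 261 kept their direction and their side of the threshold. The remaining 7 kept the direction and lost the call, and all were Cav2, with limma adjusted p = 0.0587 at equal array medians (change -1.02), 0.0658 on the deposited Z-scores (-0.42 Z units) and 0.0835 with no detection filter, beside the 4 left-out samples given above. Sizes depended on the background correction: without it Trim72 changed by 3.64 and the first Bin1 probe by 1.54, and Cav3, Dysf, Cav2, Ehd1 and the dimmer Bin1 probes by the smaller values given above, with normexp without controls close to these. The number of lower member probes was therefore 1 under those 3 settings and 1 to 2 when single samples were left out, where the higher count stayed at 7. Detection in all 10 samples, which leaves 7 member probes, gave 2 higher, and 1 probe per gene, which leaves 9, gave 4. With equal array medians 1627 probes were higher and 2936 lower, against 2620 and 3041, and 11 related genes were higher and 11 lower in place of 17 and 9. By Spearman correlation Ccnd3, Bcl2l2 and Loxl1 gave 0.794, 0.806 and 0.733 with Trim72 and Trdmt1 0.939 with Cav2, and none of these 4 was among its member's 3 closest probes.

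Same-numbered samples deviated together only weakly, with correlations from -0.244 to 0.205, and 1 of 5 samples correlated best with its own number. The numbers do not follow the tags, since replicate 2 was E1 at Day 0 and E2 at Day 6, and replicate 3 was E2 and E3. A fit with the replicate number as a block left 7 higher and 2 lower member probes and called 2467 probes higher and 2866 lower. With the tag E1 to E4 as a block, 7 member probes were again higher and 2 lower, and 2633 probes were called higher and 3078 lower. The methods' Z-ratio put 7 member probes at 1 or more and 2 at -1 or less. Signals near background limit Cav3, Dysf, Trim72 and the third Bin1 probe at Day 0, and 5 samples a day limit Cav1, Ptrf and Ehd2.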
